A study of Mus musculus with 17 samples.

Results

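The Fshr-CAM effect on ovarian gene expression was described here as 1 value per gene, pooled over ovaries with and without the luteinising hormone receptor. It came from an additive model with a term for the Fshr genotype and a term for the Lhr genotype, fitted to 15 of the 17 arrays of the study. The members were chosen by measured values of the same arrays: they were the genes whose effect had the same direction in both Lhr backgrounds, which held for 6750 of 12074 genes tested. Of these, 108 passed an adjusted p of 0.05 in the fit over all genes, 91 of them higher in Fshr-CAM ovaries and 17 lower.

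Each array measured total RNA of ovaries from 12-week-old female mice of an FVB/N x C57/BL6 cross, hybridised as biotin-labelled cRNA to a whole-genome bead array. The 8 Fshr-CAM arrays were Fshr-CAM/WT replicates 1 to 4, with Lhr intact, and Fshr-CAM/Lhr-/- replicates 1, 2, 3 and 5, without Lhr. The 7 arrays without Fshr-CAM were WT/WT replicates 1 to 4 and WT/Lhr-/- replicates 2, 3 and 4. What CAM stands for, the promoter that drives the allele and the number of founder lines are not given in the sources used here. Whether samples share a mouse is not stated, so the p-values describe spread among samples, which may be technical.

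The follicle-stimulating hormone receptor, Fshr, is a receptor of granulosa cells, the cells that surround the oocyte. It couples to the stimulatory G protein, raises cyclic AMP and drives follicle growth, inhibin and activin production and oestrogen synthesis. The luteinising hormone receptor, Lhr, sits on theca cells and on granulosa cells of mature follicles and is needed for ovulation and for the corpus luteum.

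Measured values decided which arrays entered the fit. The array labelled Fshr-CAM/Lhr-/- replicate 4 was left out because its Fshr signal was low, and the array labelled WT/Lhr-/- replicate 1 because it carried pituitary transcripts. Values in this paragraph and the next come from a normalisation of all 17 arrays. On the log2 scale Fshr was at 9.71 on the array labelled Fshr-CAM/Lhr-/- replicate 4, against 11.40 to 11.70 on the other Fshr-CAM/Lhr-/- arrays and 9.13 to 9.90 on the WT/Lhr-/- arrays of the fit. Gh, the pituitary growth hormone gene, was at 14.9 on the array labelled WT/Lhr-/- replicate 1 and at 4.32 to 4.60 on the other 16 arrays. Fshr was at 4.51 on the array labelled WT/Lhr-/- replicate 1.

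The array labelled Fshr-CAM/Lhr-/- replicate 4 is called the omitted double-mutant array here, after its label only. It also differed from its group in the called genes. Its position was placed between the mean of the WT/Lhr-/- arrays, set at 0, and the mean of the other Fshr-CAM/Lhr-/- arrays, set at 1. Over the 91 higher genes the median position was 0.11, and 7 genes lay nearer the other Fshr-CAM/Lhr-/- arrays. Over the 17 lower genes it was 0.30, with 5 nearer. Ackr1, for example, was at 4.43 there, against 6.09 to 6.89 on the other Fshr-CAM/Lhr-/- arrays and 4.33 to 4.42 on the WT/Lhr-/- arrays. Rhox8 was at 6.72, against 8.29 to 9.32 on the other Fshr-CAM/Lhr-/- arrays and 6.88 to 7.38 on the WT/Lhr-/- arrays. On this array most called genes thus stood nearer the WT/Lhr-/- arrays. The genes were called without it and with the arrays that set 0 and 1, and its position over other genes was not examined. With it put back 29 genes were higher and 3 lower, all of them among the 108. With both omitted arrays put back, Fam162b alone was called higher and 0 genes were called lower by limma, with 1245 genes at an unadjusted p under 0.05.

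**Figure D1:**
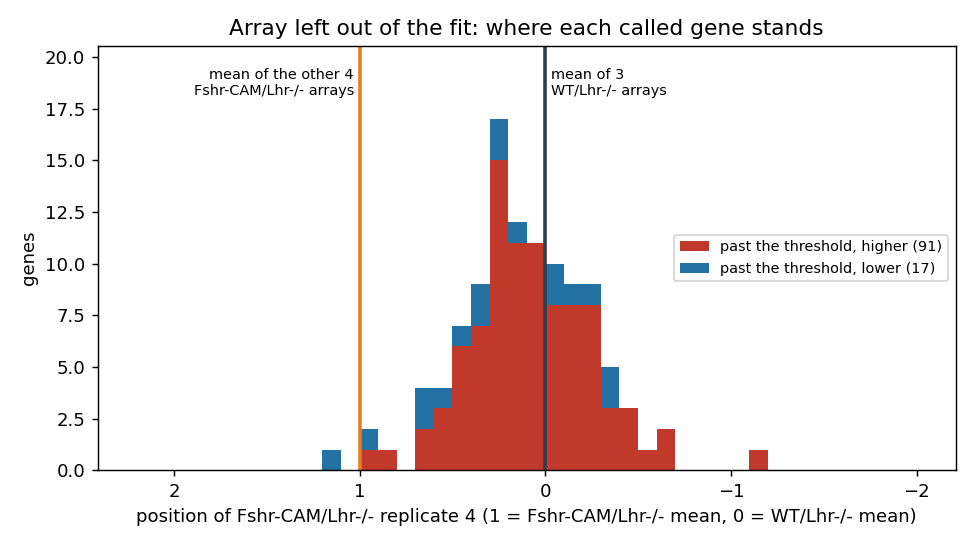
Position of the array labelled Fshr-CAM/Lhr-/- replicate 4 for each of the 108 called genes, on a scale where 1 is the mean of the other 4 Fshr-CAM/Lhr-/- arrays and 0 the mean of the 3 WT/Lhr-/- arrays. Bars count genes, red for those higher and blue for those lower in Fshr-CAM ovaries. Most genes sit near 0, and 7 of 91 and 5 of 17 lie nearer 1.

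Some arrays inside the fit also stood apart. Ovgp1, the oviductal glycoprotein gene, was at 10.5 on Fshr-CAM/Lhr-/- replicate 3, at 11.34 on WT/Lhr-/- replicate 3 and at 13.38 on WT/Lhr-/- replicate 4, against 6.26 to 7.45 on the other 12 arrays. The sperm genes Ldhc and Prm1 were at 13.35 and 12.19 on WT/Lhr-/- replicate 2. Ldhc was between 4.57 and 6.82 on the other 14 arrays. Prm1 was also at 8.02 on Fshr-CAM/WT replicate 4, at 8.76 and 7.73 on WT/WT replicates 3 and 4, and at 9.01 and 10.26 on WT/Lhr-/- replicates 3 and 4, against 4.57 to 5.44 on the rest. Between arrays of the fit the correlation of log2 values across genes was 0.908 to 0.988, and 20453 to 22006 probes per array had a detection p under 0.05. The ovarian markers Amh, Amhr2, Foxl2, Inha, Zp3, Gdf9, Bmp15, Cyp17a1 and Insl3 were detected on all 15. The luteal marker Ptgfr was detected on 4 Fshr-CAM/WT and 4 WT/WT arrays, but on 0 Fshr-CAM/Lhr-/- and 0 WT/Lhr-/- arrays. Akr1c18, also a luteal marker, was detected on 4 Fshr-CAM/WT, 4 WT/WT, 1 Fshr-CAM/Lhr-/- and 3 WT/Lhr-/- arrays. The ovaries are whole organs, so more cells of a type and more RNA per cell cannot be told apart. No probe carried the symbol Lhcgr, so the Lhr transcript was not analysed here.

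The 91 higher genes were 0.754% of the genes tested and the 17 lower genes 0.141%, together 0.894%. Counts of called genes in gene lists, given below, are to be read beside that share. All genes past the threshold had the same direction in both backgrounds, as 0 had opposite directions, so the rule on direction removed none of them. Of the called genes, 30 were more than 2-fold higher and 3 more than 2-fold lower. The median effect was 0.74 on the log2 scale over the higher genes and -0.47 over the lower genes, beside 0.01 over all genes tested. Just inside the threshold were Nlrp6 and Corin, at an adjusted p of 0.0485, and Mzt1, at 0.0491. Just outside were Impdh1, Glis2 and Kcnab1, each at 0.0523.

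Arrays with and without Fshr-CAM did not overlap within either Lhr background in 56 of 91 higher and 10 of 17 lower genes. The same separation held for 0.621% of all genes tested in the higher direction and 0.116% in the lower. Over all 15 arrays at once, 30 higher and 5 lower genes did not overlap, where the background was 0.29% and 0.0414%. These shares restate the values that made the calls and are given as a description.

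The number of lower genes moved with single arrays. It was 10 without WT/WT replicate 3, and 11, 7 and 32 without Fshr-CAM/WT replicates 2, 3 and 4. It was 6 without each of Fshr-CAM/Lhr-/- replicates 1, 2 and 3, and 9 without Fshr-CAM/Lhr-/- replicate 5. It was 7 without WT/Lhr-/- replicate 2 and 8 without WT/Lhr-/- replicate 4. The number of higher genes stayed between 61 and 123. Leaving out the 3 arrays with high Ovgp1, an alternative chosen after seeing the data, left replicate 2 as the only WT/Lhr-/- array. Genes past the threshold in that fit are therefore not counted here. In the named genes below, 16 of 29 passed the threshold in each of the 15 fits that left out 1 array. With the omitted double-mutant array put back, 13 of 29 passed: Fshr, Rhox8, Fam162b, Ackr1, Lrp11, Tox, Grem1, Epha5, Inhba, Mtcl1, Scd1, Hint3 and Gnai1.

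**Figure D2:**
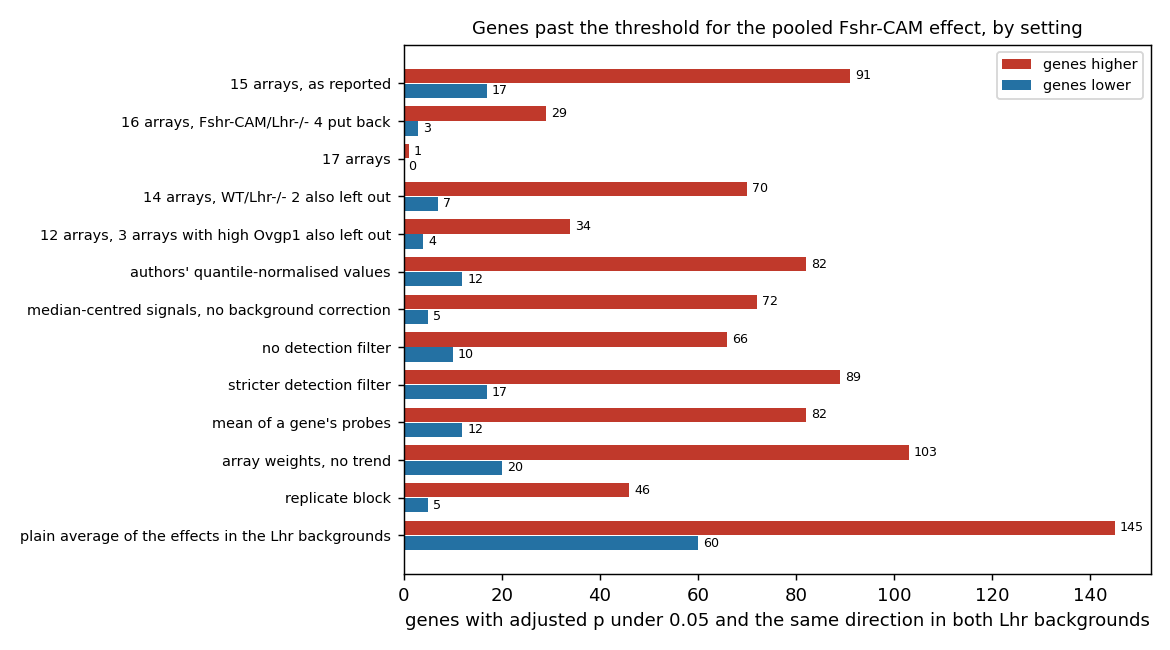
Number of genes past the threshold with the same direction in both Lhr backgrounds, red for higher and blue for lower in Fshr-CAM ovaries, in the 15-array fit and 12 alternative settings. The bars fall to 29 and 3 with 1 omitted array put back and to 1 and 0 with both. The setting without the 3 arrays with high Ovgp1 had only 1 WT/Lhr-/- array.

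Fshr is the gene named in the Fshr-CAM genotype. Measured by probe ILMN_1228881, it had log2 signals of 11.61, 11.50, 11.91 and 11.14 on the Fshr-CAM/WT arrays, against 8.68, 8.37, 9.18 and 9.0 on the WT/WT arrays. It had 11.49, 11.48, 11.74 and 11.44 on the Fshr-CAM/Lhr-/- arrays, against 9.16, 9.76 and 9.94 on the WT/Lhr-/- arrays. Every Fshr-CAM array was above every array without it. The pooled effect was 2.36 ± 0.18 (SE) on the log2 scale, a 5.12-fold difference. Because Fshr decided which array was left out, this is a description with no test. With that array put back the effect was 2.16. Counts of called genes, and of fits in which calls held, include Fshr as a description too. A second Fshr probe, ILMN_2736929, gave an effect of 1.83 ± 0.16 (SE), and the third, ILMN_2932141, gave -0.19 ± 0.17 (SE), so the probes of the gene disagreed. The position of each probe in the gene was not examined.

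Among transcription regulators, Rhox8 had the largest effect of all genes past the threshold. It is an X-linked homeobox gene of the Rhox cluster, whose members act in reproductive tissues. Rhox8 had log2 signals of 10.22, 8.74, 9.49 and 8.65 on the Fshr-CAM/WT arrays, against 6.36, 6.28, 5.83 and 5.68 on the WT/WT arrays. It had 8.94, 9.26, 9.35 and 8.32 on the Fshr-CAM/Lhr-/- arrays, against 7.41, 6.91 and 7.04 on the WT/Lhr-/- arrays. The groups did not overlap over all 15 arrays, and Rhox8 rose by 2.60 ± 0.29 (SE) on the log2 scale, 6.05-fold (adjusted p = 0.000432). With the omitted double-mutant array put back the rise was 2.35 (adjusted p = 0.0218). Of the Rhox list, 3 of 10 genes were tested and 1, Rhox8, was called. Rhox5, also X-linked, had an effect of 0.70 (adjusted p = 0.101) and did not pass. Its signals were 6.24, 6.26, 6.90 and 6.0 on the Fshr-CAM/WT arrays against 5.13, 5.24, 5.07 and 5.29 on the WT/WT arrays. Without Lhr they were 5.95, 5.65, 5.69 and 5.99 on the Fshr-CAM/Lhr-/- arrays against 5.57, 5.64 and 5.83 on the WT/Lhr-/- arrays, where the groups overlapped.

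Fosl2, a member of the AP-1 family of transcription factors, rose by 0.68 ± 0.13 (SE) on the log2 scale (adjusted p = 0.0163). Its signals were 12.48, 12.20, 12.74 and 12.34 on the Fshr-CAM/WT arrays against 12.05, 12.24, 11.89 and 11.84 on the WT/WT arrays, which overlapped. They were 12.22, 11.77, 12.29 and 11.78 on the Fshr-CAM/Lhr-/- arrays against 11.22, 10.79 and 11.11 on the WT/Lhr-/- arrays, which did not. A second Fosl2 probe gave 0.05, and with the omitted double-mutant array put back Fosl2 did not pass. Fosl2 was the 1 of 16 immediate early genes that passed, and that list had a median of 0.118 beside 0.013 over all genes. Tox, an HMG-box nuclear protein, rose by 1.72 ± 0.29 (SE) on the log2 scale (adjusted p = 0.00806), with signals of 6.18 to 8.44 on the 8 Fshr-CAM arrays and 5.53 to 6.36 on the 7 others. The 2 sides overlapped through Fshr-CAM/WT replicate 4 alone.

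Among secreted hormones and growth factors, Inhba rose. It encodes the beta A subunit shared by activin A and inhibin A, products of granulosa cells. Inhba had log2 signals of 14.08, 13.09, 13.82 and 13.57 on the Fshr-CAM/WT arrays, against 11.56, 11.53, 11.83 and 11.94 on the WT/WT arrays. It had 13.70, 13.15, 13.38 and 13.40 on the Fshr-CAM/Lhr-/- arrays, against 12.21, 12.74 and 12.77 on the WT/Lhr-/- arrays. All Fshr-CAM arrays lay above all others, and the pooled rise was 1.42 ± 0.19 (SE), or 2.68-fold (adjusted p = 0.00171). The effect was 1.92 with Lhr and 0.84 without, and the difference between them, -1.09 ± 0.28 (SE), did not pass the interaction test (adjusted p = 0.143). With the omitted double-mutant array put back Inhba kept its call, at 1.34 (adjusted p = 0.0138).

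Of the 10 inhibin, activin and follistatin genes tested, Inhba was the 1 called, and the list had a median of 0.226. Inha, the alpha subunit of inhibin, had a pooled effect of 0.35 (adjusted p = 0.346), made of 0.81 with Lhr and -0.18 without. Its signals ran from 13.58 to 14.02 on the Fshr-CAM/WT arrays and from 12.66 to 13.16 on the WT/WT arrays, with no overlap. They ran from 13.60 to 13.89 on the Fshr-CAM/Lhr-/- arrays and from 13.75 to 14.16 on the WT/Lhr-/- arrays, which overlapped. Fst, which encodes the activin-binding protein follistatin, had an effect of 0.71 (adjusted p = 0.167).

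Grem1 encodes gremlin 1, a secreted antagonist of bone morphogenetic proteins made by granulosa and cumulus cells. It had log2 signals of 7.98, 7.41, 8.21 and 7.29 on the Fshr-CAM/WT arrays, against 6.42, 6.68, 5.94 and 4.97 on the WT/WT arrays. It had 7.85, 7.37, 7.42 and 7.07 on the Fshr-CAM/Lhr-/- arrays, against 5.91, 5.89 and 5.81 on the WT/Lhr-/- arrays. The groups did not overlap, and the effect was close in size with Lhr (1.72) and without it (1.56). The pooled rise was 1.64 ± 0.23 (SE), 3.13-fold (adjusted p = 0.00171), and 1.47 with the omitted double-mutant array put back (adjusted p = 0.0443). Grem1 was the 1 gene called of 17 granulosa cell genes tested, a list with a median of -0.024. It was also the 1 called of 15 AMH, BMP and Id genes, with a median of 0.087. Of all genes tested, 0.894% were called. The granulosa markers Amh, Amhr2 and Foxl2 had effects of -0.11, 0.11 and 0.24 and did not pass.

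**Figure D3:**
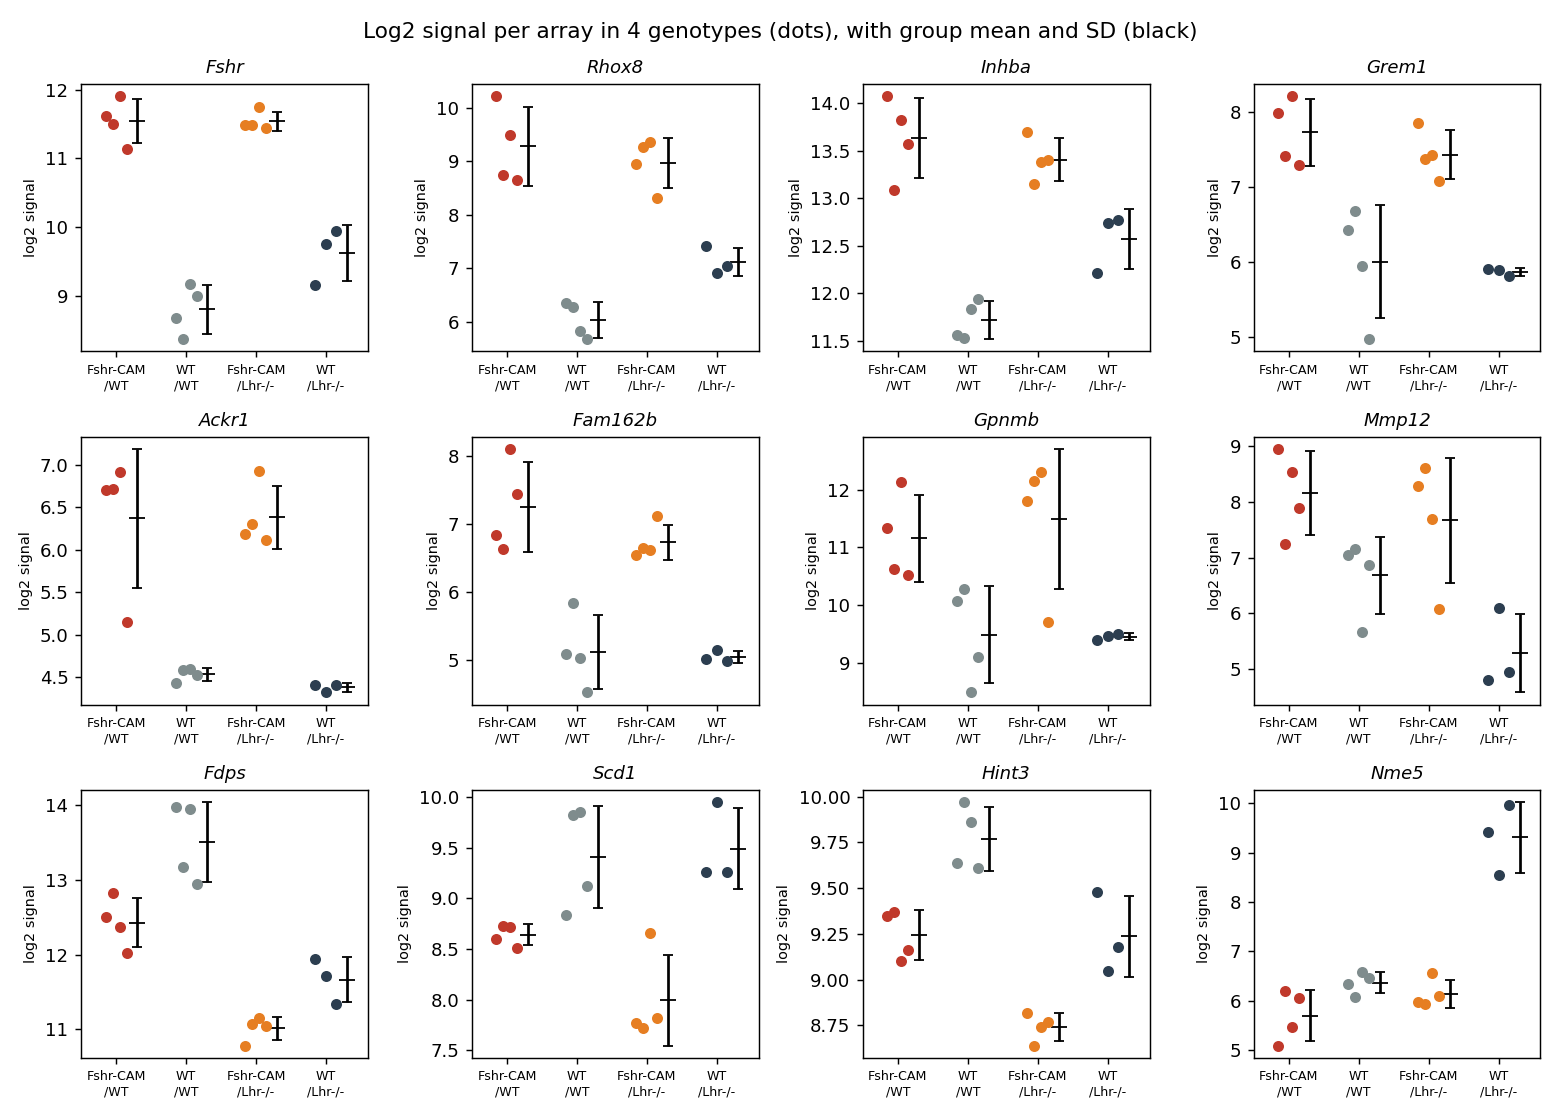
Log2 signal of 12 named genes on each array. Dots are single arrays in the order Fshr-CAM/WT, WT/WT, Fshr-CAM/Lhr-/- and WT/Lhr-/-, and black marks give the group mean and SD (n = 4, 4, 4 and 3). Fshr, Rhox8, Inhba, Grem1, Ackr1 and Fam162b separate fully by Fshr-CAM, whereas Gpnmb and Mmp12 overlap between the sides and Nme5 departs in the WT/Lhr-/- group.

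The promoters of called genes were searched for short motifs, since cyclic AMP acts on many genes through the cAMP response element. RefSeq promoters (GRCm38.p6, 250 bases before to 50 after each start) were matched for 65 higher genes of 91 and for 12 lower genes of 17. The full element TGACGTCA, read on both strands, was in 2 of 65 higher genes, 3.08%, against 3.35% of the 9727 tested genes with a promoter. A gene counted if any of its promoters held the motif. By single promoter entry the share was 1.79% of all 32851, a different measure from the shares of genes. TGACG, a shorter form that every full element also contains, was in 24.6% of the higher genes and 33.5% of the tested genes. AAGGTCA, the site of NR5A orphan receptors, was in 3.08% and 3.94%. TATAAA was in 12.3% and 9.67%. Shown are Inhba, chr13:16011601-16011900 on the plus strand, as the called gene with the best known granulosa role, and the 2 higher genes with a full element, chosen after their values were seen. These are Kif5c, chr2:49619036-49619335 on the plus strand, and Ppp1r15a, chr7:45526219-45526518 on the minus strand. Capitals mark matches of these motifs on either strand.
Inhba: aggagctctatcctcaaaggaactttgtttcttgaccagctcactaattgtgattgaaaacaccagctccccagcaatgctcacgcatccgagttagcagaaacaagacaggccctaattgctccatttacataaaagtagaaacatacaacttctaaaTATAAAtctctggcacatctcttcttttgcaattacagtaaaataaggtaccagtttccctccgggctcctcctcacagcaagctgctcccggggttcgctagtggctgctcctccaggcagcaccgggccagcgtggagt
Kif5c: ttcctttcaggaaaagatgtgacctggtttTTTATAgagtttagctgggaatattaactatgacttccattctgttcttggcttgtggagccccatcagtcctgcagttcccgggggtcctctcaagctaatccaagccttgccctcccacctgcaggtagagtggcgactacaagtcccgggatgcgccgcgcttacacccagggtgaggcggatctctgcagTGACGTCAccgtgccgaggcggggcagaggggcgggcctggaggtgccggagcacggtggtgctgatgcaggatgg
Ppp1r15a: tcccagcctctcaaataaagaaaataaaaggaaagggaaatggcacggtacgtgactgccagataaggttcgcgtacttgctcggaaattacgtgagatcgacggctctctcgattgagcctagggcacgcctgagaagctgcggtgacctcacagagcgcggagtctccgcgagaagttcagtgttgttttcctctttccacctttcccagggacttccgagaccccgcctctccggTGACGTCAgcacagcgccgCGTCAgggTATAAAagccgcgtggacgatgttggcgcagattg
In Inhba TATAAA began 91 bases before the start. The full element began 26 bases before the start in Kif5c and 12 bases before it in Ppp1r15a.

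Kif5c, a kinesin heavy chain, rose by 0.55 ± 0.11 (SE) on the log2 scale (adjusted p = 0.0217). Its signals were 6.62, 6.81, 6.84 and 6.51 on the Fshr-CAM/WT arrays against 6.4, 6.30, 6.16 and 5.91 on the WT/WT arrays. They were 6.92, 7.06, 6.99 and 7.09 on the Fshr-CAM/Lhr-/- arrays against 6.24, 6.32 and 6.70 on the WT/Lhr-/- arrays, so that neither pair overlapped. Ppp1r15a, a regulatory subunit of protein phosphatase 1 in the stress response, rose by 0.45 ± 0.10 (SE) (adjusted p = 0.0465). Its effect was 0.66 with Lhr and 0.20 without, where the groups overlapped.

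In the receptor signalling pathway, 23 of 26 genes of FSH receptor and cyclic AMP signalling were tested and 2, Fshr and Gnai1, were called. Fshr is counted here as a description, because its values decided which array was left out. The list had a median of 0.072. Gnai1 encodes an inhibitory G protein alpha subunit that lowers adenylyl cyclase activity. It had log2 signals of 8.35, 8.53, 8.42 and 8.61 on the Fshr-CAM/WT arrays, against 8.16, 7.84, 8.08 and 7.87 on the WT/WT arrays. It had 8.86, 8.64, 8.99 and 8.57 on the Fshr-CAM/Lhr-/- arrays, against 8.01, 7.78 and 7.99 on the WT/Lhr-/- arrays. No Fshr-CAM array overlapped the others, and Gnai1 rose by 0.65 ± 0.10 (SE), 1.57-fold (adjusted p = 0.00302). Gnas, the stimulatory alpha subunit, had an effect of 0.02, and Prkar2b, a regulatory subunit of protein kinase A, had 0.94 (adjusted p = 0.145); neither passed.

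The receptor and receptor-related genes Ackr1, Epha5, Lrp11, Fzd2 and Gnrhr passed the threshold as higher. Ackr1, an atypical chemokine receptor of venular endothelium and red blood cells, had 6.70, 6.71, 6.91 and 5.15 on the Fshr-CAM/WT arrays, against 4.43, 4.58, 4.59 and 4.53 on the WT/WT arrays. It had 6.18, 6.30, 6.93 and 6.11 on the Fshr-CAM/Lhr-/- arrays, against 4.41, 4.32 and 4.41 on the WT/Lhr-/- arrays. Its probe was not above background on any of the 7 arrays without Fshr-CAM and was detected on all 8 with it, so Ackr1 was at least 2.72-fold higher (adjusted p = 0.000432). None of the 15 endothelial genes tested was called, and their summed signal was 9426 to 15578 on the Fshr-CAM/WT arrays against 9636 to 13253 on the WT/WT arrays. It was 8790 to 10876 on the Fshr-CAM/Lhr-/- arrays against 6775 to 9221 on the WT/Lhr-/- arrays. The 5 red blood cell genes tested had a median effect of 0.853 and none called. Their summed signal was 4221 to 17800 on the Fshr-CAM/WT arrays against 1815 to 7630 on the WT/WT arrays. It was 3580 to 10374 on the Fshr-CAM/Lhr-/- arrays against 4684 to 5320 on the WT/Lhr-/- arrays. The part of these cells in the Ackr1 result was not tested.

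Epha5, an ephrin receptor tyrosine kinase, had log2 signals of 6.4, 6.69, 7.69 and 6.26 on the Fshr-CAM/WT arrays, against 5.41, 5.51, 4.62 and 4.76 on the WT/WT arrays. It had 7.18, 6.23, 6.59 and 6.46 on the Fshr-CAM/Lhr-/- arrays, against 5.47, 5.21 and 5.14 on the WT/Lhr-/- arrays. The sides did not overlap, and Epha5 rose by 1.53 ± 0.22 (SE) (adjusted p = 0.00245), while its second probe gave 0.45. Lrp11, a member of the low-density lipoprotein receptor family, rose by 1.72 ± 0.25 (SE) (adjusted p = 0.00245), with effects of 1.42 with Lhr and 2.08 without. Fzd2, a Wnt receptor, rose by 0.99 ± 0.22 (SE) (adjusted p = 0.0465) and was the 1 called of 19 Wnt pathway genes, a list with a median of -0.06. Its call held in 3 of 15 fits that left out 1 array. Gnrhr, the gonadotropin-releasing hormone receptor best known from the pituitary, was detected on 7 of 8 Fshr-CAM arrays and on 0 of the 7 others. It was at least 1.27-fold higher (adjusted p = 0.0403), and its call held in 4 of 15 such fits.

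Fam162b was called in each of the 12 alternative settings and each of the 15 fits that left out 1 array, of which 1 is also among the 12. It had log2 signals of 6.84, 6.63, 8.11 and 7.45 on the Fshr-CAM/WT arrays, against 5.08, 5.84, 5.03 and 4.52 on the WT/WT arrays. It had 6.54, 6.65, 6.62 and 7.12 on the Fshr-CAM/Lhr-/- arrays, against 5.01, 5.14 and 4.98 on the WT/Lhr-/- arrays. The sides were fully apart, and Fam162b rose by 1.93 ± 0.23 (SE), 3.82-fold (adjusted p = 0.000432). With all 17 arrays the rise was 1.83 (adjusted p = 0.0211). Those include the array labelled WT/Lhr-/- replicate 1, where Gh was at 14.9 and Fshr at 4.51. Fam162b was at 4.42 on it, against 4.98 to 5.13 on the WT/Lhr-/- arrays of the 15-array fit. Among the 12 settings, the fit without the 3 arrays with high Ovgp1 kept only 1 WT/Lhr-/- array. Mtcl1, which crosslinks microtubules, rose by 1.38 ± 0.17 (SE) (adjusted p = 0.000527), with effects of 1.38 with Lhr and 1.39 without and no overlap between the sides. A second Mtcl1 probe gave 0.55.

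Other large rises were those of Comp, Mia, Mmp12 and Gpnmb. Comp, a secreted matrix glycoprotein of cartilage, had 7.64, 6.67, 8.24 and 8.92 on the Fshr-CAM/WT arrays, against 5.09, 6.05, 5.96 and 4.47 on the WT/WT arrays. It had 8.02, 7.97, 7.42 and 8.10 on the Fshr-CAM/Lhr-/- arrays, against 7.38, 5.49 and 5.47 on the WT/Lhr-/- arrays. Comp rose by 2.15 ± 0.37 (SE) (adjusted p = 0.0088), without overlap within either background, but did not pass with the omitted double-mutant array put back. Its second probe gave 0.84. None of the 19 extracellular matrix genes tested was called, and their median was 0.011. Mia, a small secreted protein of cartilage, rose by 1.79 ± 0.38 (SE) (adjusted p = 0.0323), with a highest value of 10.84 on Fshr-CAM/WT replicate 1. Its call held in 5 of 15 fits that left out 1 array.

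Mmp12, the macrophage elastase, had 8.95, 7.24, 8.54 and 7.89 on the Fshr-CAM/WT arrays, against 7.05, 7.16, 5.66 and 6.86 on the WT/WT arrays. It had 8.29, 8.61, 7.70 and 6.08 on the Fshr-CAM/Lhr-/- arrays, against 4.81, 6.09 and 4.95 on the WT/Lhr-/- arrays, which overlapped. Mmp12 rose by 1.89 ± 0.40 (SE) (adjusted p = 0.032), a call held in 7 of 15 fits that left out 1 array. Gpnmb, a transmembrane glycoprotein of macrophages and other cells, rose by 1.84 ± 0.38 (SE) (adjusted p = 0.0316). Its signals ran from 9.71 to 12.31 on the Fshr-CAM arrays and from 8.49 to 10.28 on the others, with a call held in 5 of 15 such fits. Its 4 probes gave 0.49 to 1.84. None of the 13 macrophage genes tested was called, and their median was -0.037. Their summed signal was 8891 to 13241 on the Fshr-CAM/WT arrays against 6380 to 12462 on the WT/WT arrays. It was 4732 to 13057 on the Fshr-CAM/Lhr-/- arrays against 6465 to 9429 on the WT/Lhr-/- arrays. The part of macrophage number in these 2 genes was not tested.

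Acta2, smooth muscle actin, rose by 0.35 ± 0.07 (SE) (adjusted p = 0.0274), with 14.07 to 14.50 across the Fshr-CAM arrays and 13.71 to 14.22 across the others. It was the 1 called of 8 smooth muscle genes, whose median was 0.344. The summed signal of that list was 21338 to 30480 on the Fshr-CAM/WT arrays against 17113 to 21496 on the WT/WT arrays. It was 27377 to 30233 on the Fshr-CAM/Lhr-/- arrays against 21634 to 23679 on the WT/Lhr-/- arrays. The summed signals did not overlap without Lhr and overlapped with it, and their part in the Acta2 result was not tested. The call of Acta2 held in 9 of 15 fits that left out 1 array.

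Among the lower genes were Fdps and Scd1, enzymes of lipid synthesis. Fdps encodes farnesyl diphosphate synthase of the mevalonate pathway. It had log2 signals of 12.50, 12.82, 12.37 and 12.02 on the Fshr-CAM/WT arrays, against 13.98, 13.17, 13.95 and 12.94 on the WT/WT arrays. It had 10.78, 11.07, 11.15 and 11.04 on the Fshr-CAM/Lhr-/- arrays, against 11.94, 11.71 and 11.34 on the WT/Lhr-/- arrays. Within each background the groups did not overlap, and Fdps fell by 0.88 ± 0.17 (SE) on the log2 scale (adjusted p = 0.0205). It did not pass without Fshr-CAM/WT replicate 3, without WT/Lhr-/- replicate 2 or with the omitted double-mutant array put back. Nor did Fdps pass with the mean of its probes or with all 17 arrays. A second Fdps probe gave -0.75 ± 0.25 (SE), with effects of -1.24 with Lhr and -0.18 without.

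Fdps was the 1 called of 16 genes of cholesterol synthesis and uptake. The list had a median of -0.381, with 3 of 16 effects above 0, beside a median of 0.013 over all genes. Sqle, squalene epoxidase, had an effect of -0.68 (adjusted p = 0.107) and Cyp51, lanosterol demethylase, had -0.78 (adjusted p = 0.215). Scd1, stearoyl-CoA desaturase, had 8.6, 8.73, 8.72 and 8.51 on the Fshr-CAM/WT arrays, against 8.84, 9.82, 9.85 and 9.12 on the WT/WT arrays. It had 7.77, 7.72, 8.66 and 7.82 on the Fshr-CAM/Lhr-/- arrays, against 9.26, 9.95 and 9.26 on the WT/Lhr-/- arrays. The sides were apart over all 15 arrays, and Scd1 fell by 1.11 ± 0.20 (SE) (adjusted p = 0.0153). None of 7 adipocyte genes tested was called, and their median was -0.61, made of 0.312 with Lhr and -1.549 without. Their summed signal was 2476 to 4608 on the Fshr-CAM/WT arrays against 2199 to 2722 on the WT/WT arrays. It was 2732 to 3892 on the Fshr-CAM/Lhr-/- arrays against 3969 to 4698 on the WT/Lhr-/- arrays, and its part in the Scd1 result was not tested.

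Nme5 and Rsph9 encode parts of the radial spokes of motile cilia and sperm tails. Nme5 had 5.09, 6.19, 5.46 and 6.05 on the Fshr-CAM/WT arrays, against 6.33, 6.08, 6.59 and 6.47 on the WT/WT arrays, which overlapped. It had 5.97, 5.94, 6.56 and 6.10 on the Fshr-CAM/Lhr-/- arrays, against 9.41, 8.55 and 9.97 on the WT/Lhr-/- arrays. High values were thus those of the WT/Lhr-/- arrays. Its pooled fall of 1.82 ± 0.38 (SE) (adjusted p = 0.0315) averaged -0.67 with Lhr and -3.17 without, a difference of -2.49 ± 0.43 (SE) that passed the interaction test (adjusted p = 0.0218). Rsph9 fell by 0.88 ± 0.20 (SE) (adjusted p = 0.0465), with effects of -0.46 with Lhr and -1.38 without.

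The 11 oviduct and ciliated epithelium genes tested had a median of -1.483 and none called. Their summed signal was 514 to 756 on the Fshr-CAM/WT arrays against 607 to 772 on the WT/WT arrays. It was 575 to 2193 on the Fshr-CAM/Lhr-/- arrays against 5187 to 18448 on the WT/Lhr-/- arrays. Summed sperm genes were at 176 to 541 on the Fshr-CAM/WT arrays against 237 to 738 on the WT/WT arrays. They were at 222 to 263 on the Fshr-CAM/Lhr-/- arrays against 840 to 16517 on the WT/Lhr-/- arrays. Without the 3 arrays with high Ovgp1, Nme5 had an effect of -1.42, with replicate 2 as the only WT/Lhr-/- array left. That array had Ovgp1 at 6.80 but Nme5 at 9.41. Dynlrb2, a gene of the oviduct and ciliated list, was at 9.01 to 11.40 on the WT/Lhr-/- arrays. The setting thus kept signal of that list and cannot test its part. The calls of Nme5 and Rsph9 held in 6 and 4 of 15 fits that left out 1 array, and the part of oviduct or sperm RNA was not tested.

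Hint3, a histidine triad hydrolase, had 9.35, 9.37, 9.10 and 9.16 on the Fshr-CAM/WT arrays, against 9.64, 9.97, 9.86 and 9.61 on the WT/WT arrays. It had 8.82, 8.64, 8.74 and 8.77 on the Fshr-CAM/Lhr-/- arrays, against 9.48, 9.05 and 9.18 on the WT/Lhr-/- arrays. Hint3 was lower without overlap in both backgrounds, by nearly the same amount (-0.53 with Lhr and -0.49 without), and fell by 0.51 ± 0.08 (SE) (adjusted p = 0.00548). Hmox2, the constitutive haem oxygenase, fell by 0.44 ± 0.08 (SE) (adjusted p = 0.0163) with no overlap over the 15 arrays. Tipin, a replication fork protein, fell by 0.47 ± 0.09 (SE) (adjusted p = 0.0224). Its 3 probes gave -0.54 to -0.02. The call of Tipin held in 9 of 15 fits that left out 1 array, and with the omitted double-mutant array put back its effect was -0.39 (adjusted p = 0.247).

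Map3k21, a mixed-lineage kinase, fell by 1.12 ± 0.25 (SE), Rnf125, a ubiquitin ligase, by 0.47 ± 0.11 (SE), and Erc2, a presynaptic scaffold protein, by 0.43 ± 0.10 (SE). Their adjusted p-values were 0.0473, 0.0465 and 0.0465. Erc2 was detected on 1 of 8 Fshr-CAM arrays and on 6 of the 7 others. These 3 calls held in 3, 1 and 3 of the 15 fits that left out 1 array.

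Steroid hormone synthesis showed no called gene among 10 tested, and its median was -0.01. Cyp17a1, which makes androgens in theca cells, had the largest effect of that list, 1.86 ± 0.48 (SE), and did not pass (adjusted p = 0.101). Its signals were 11.82, 14.08, 13.90 and 13.20 on the Fshr-CAM/WT arrays, against 11.46, 13.38, 12.25 and 9.34 on the WT/WT arrays. They were 13.30, 13.50, 13.48 and 13.64 on the Fshr-CAM/Lhr-/- arrays, against 12.24, 11.02 and 10.83 on the WT/Lhr-/- arrays, which did not overlap. Star, the cholesterol carrier into mitochondria, had effects of -1.07 with Lhr and 0.77 without. None of 21 oocyte genes tested was called, and their median was -0.315.

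**Figure D4:**
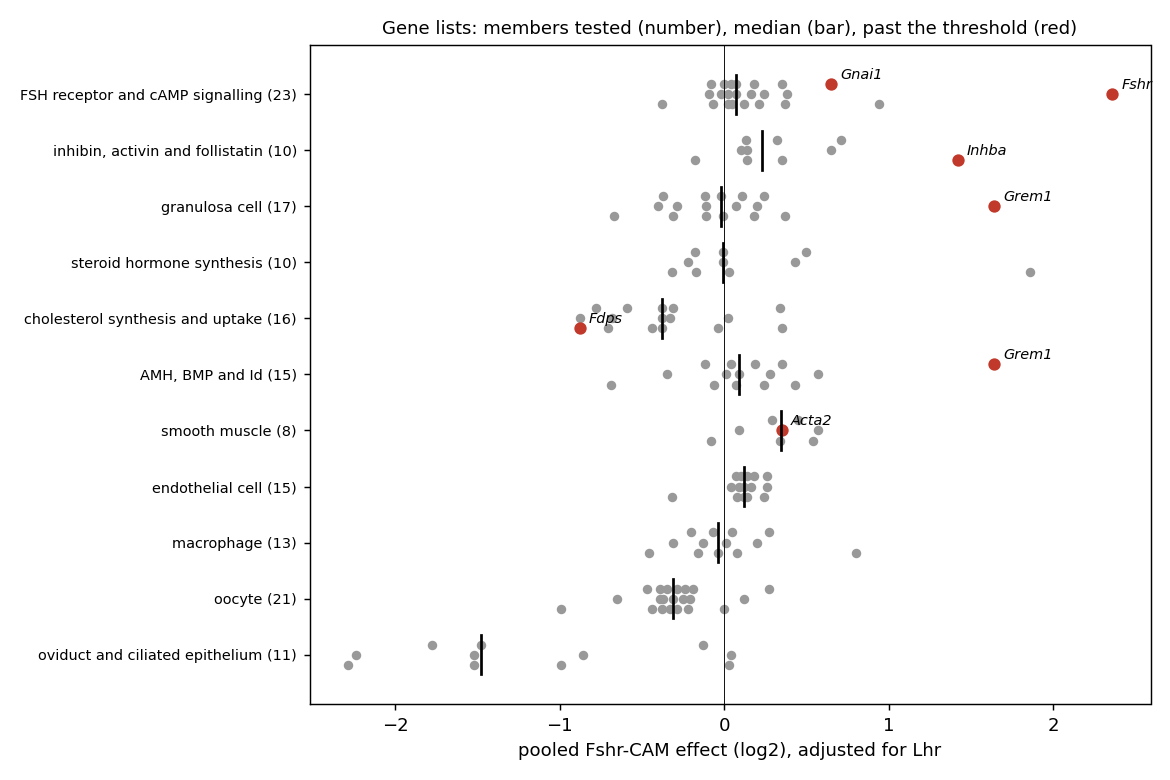
Pooled Fshr-CAM effect on the log2 scale for the tested genes of 11 lists, with the number tested in brackets. Grey dots are genes that did not pass, red dots genes past the threshold with their names, and black bars the list medians. Single genes stand far right of their lists, such as Fshr, Inhba and Grem1, while the list medians lie within 0.226 of 0 except for cholesterol synthesis, smooth muscle, oocyte and oviduct genes.

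The effect was compared between the backgrounds by the interaction term. It was called for 67 of 12074 genes, 0.555%, and for 2 of the 108 called genes, Nme5 and Grin2b. Its unadjusted p was under 0.05 for 23 of the 108, beside 1148 of the 12074 genes tested. Single arrays moved the count of 67: it was 32, 41 and 42 without WT/WT replicates 1, 2 and 3, and 25 and 29 without Fshr-CAM/WT replicates 3 and 4. It was 22 and 23 without Fshr-CAM/Lhr-/- replicates 1 and 2, and 25 without WT/Lhr-/- replicate 4. It was 133 with array weights and 24 with the omitted double-mutant array put back. Over the 91 higher genes the median effect was 0.71 with Lhr and 0.82 without, and 53 had the larger effect without Lhr. Over the 17 lower genes it was -0.46 with Lhr and -0.62 without, with 11 larger without Lhr. Grin2b, an NMDA-type glutamate receptor subunit chosen after its values were seen, had effects of 0.79 with Lhr and 1.88 without, a difference of 1.09 ± 0.23 (SE) (adjusted p = 0.0496). Its signals ran from 6.82 to 7.5 on the Fshr-CAM/WT arrays and 6.25 to 6.59 on the WT/WT arrays. They ran from 7.46 to 7.82 on the Fshr-CAM/Lhr-/- arrays and 5.72 to 5.80 on the WT/Lhr-/- arrays.

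**Figure D5:**
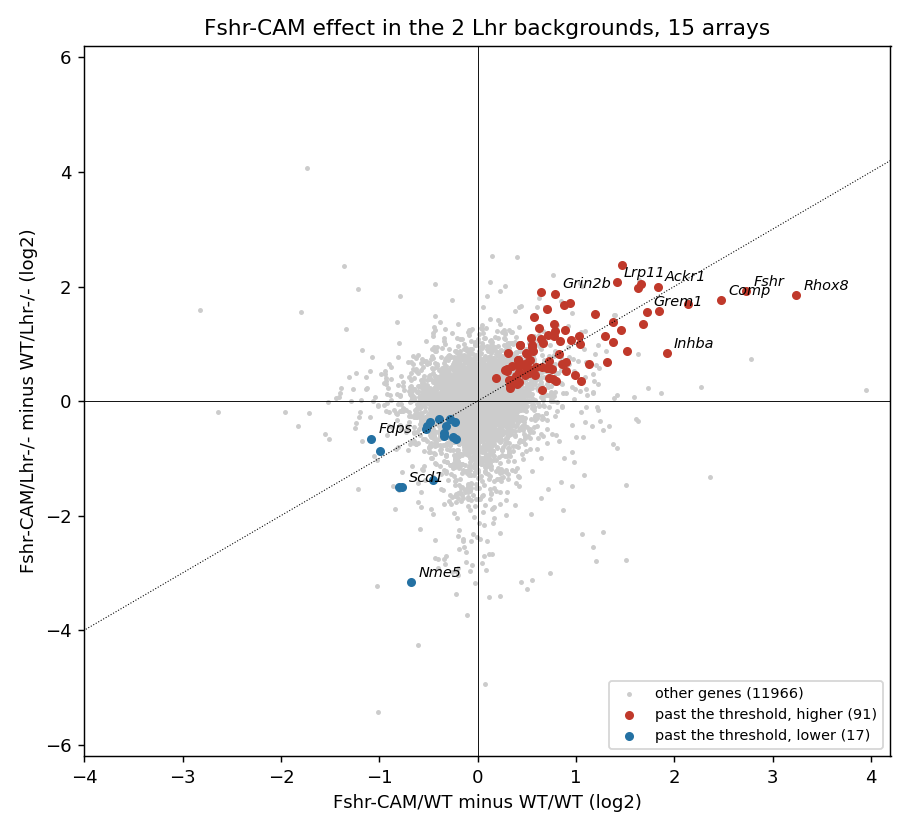
Fshr-CAM effect on the log2 scale with Lhr (horizontal axis, Fshr-CAM/WT minus WT/WT) and without it (vertical axis, Fshr-CAM/Lhr-/- minus WT/Lhr-/-) for 12074 genes. Red and blue dots are the 91 higher and 17 lower genes, grey dots the others, and the dotted line marks equal effects. Inhba and Rhox8 lie below the line, Grin2b above it, and Nme5 far below.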

How the data were processed

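The authors used GenomeStudio 1.7.0, as the submitters' processing notes list it. Per the file headers, each of 45281 probes has in the non-normalised table an average signal intensity, a detection p-value and the number of beads, a count whose array median was 41 to 43. The median intensity per array was 56.7 to 74.4. A second deposited table holds the intensities after quantile normalisation by the authors, identical to the series matrix.

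Groups came from the sample titles. From the non-normalised table, neqc of limma 3.58.1 in R 4.3.3 corrected background with the detection p-values, added an offset of 16, normalised by quantiles and took log2. A detection p under 0.05 was required on 4 arrays or more (22958 probes, 19325 with 1 gene symbol in the array annotation), and the brightest probe stood for a gene. The annotation gave 1 symbol for 34885 probes, several for 18 and none for 10378. The additive fit used lmFit and eBayes with an intensity trend, Benjamini-Hochberg adjustment over 12074 genes and a threshold of 0.05; the interaction came from a fit with that term. On simulated data of 12074 genes this fit recovered 91 of 100 genes changed by 1 and 97 of 100 changed by 2 on the log2 scale, with 13 false calls. The simulated errors were normal and independent, around additive means. The simulation thus does not cover interactions or deviations of an array that many genes share. A fold against a side at background on every array is a lower bound.

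Named genes were Fshr, the top 14 rises and top 10 falls by size among called genes with the same direction in both backgrounds, leaving out clone and predicted names, and up to 3 such genes from each of 30 gene lists, 29 genes in all. Any other gene is a list member given by value or is marked as a later choice. The members, lists and tests were chosen with earlier results of these data known. Figures used matplotlib 3.10.9 and pandas 2.3.3.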

Additional observations from a re-analysis of the deposited data

Results flagged for a closer look

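Among 87 groups of 4 arrays, 4 held an array far from the other 3 by Dixon's test, where chance flags about 1 group in 20. Fshr was at 11.74 on Fshr-CAM/Lhr-/- replicate 3, against 11.44 to 11.49 on the other Fshr-CAM/Lhr-/- arrays of the fit. That group had lost an array for its low Fshr signal. Ackr1 was at 5.15 on Fshr-CAM/WT replicate 4, against 6.70 to 6.91 on the other Fshr-CAM/WT arrays. Lrp11 was at 8.88 on WT/WT replicate 4, against 9.47 to 9.54 on the other WT/WT arrays. Scd1 was at 8.66 on Fshr-CAM/Lhr-/- replicate 3, against 7.72 to 7.82 on the other Fshr-CAM/Lhr-/- arrays.

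The Fshr-CAM effect on Nme5 differed between the backgrounds by -2.49 on the log2 scale, without minus with Lhr, in the interaction test. In data outside the fit, Gh was at 14.9 on the array labelled WT/Lhr-/- replicate 1, against 4.32 to 4.60 on the other 16 arrays.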

How the results depend on the processing

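With the array labelled Fshr-CAM/Lhr-/- replicate 4 put back, 29 genes were higher, 3 lower and 24 had an interaction, and with all 17 arrays 1, 0 and 13. Without the 3 arrays with high Ovgp1 they were 34, 4 and 218. Leaving out each of the 15 arrays in turn gave 61 to 123 higher, 6 to 32 lower and 22 to 83 interaction genes. Also without WT/Lhr-/- replicate 2, 7 genes were lower. Median-centred signals gave 5 lower genes and 42 with an interaction, no detection filter gave 10 lower genes, with more genes tested, and array weights gave 133 with an interaction. The plain average of the effects in the 2 backgrounds gave 145 higher and 60 lower genes, 70.7% higher against 84.3% in the additive fit. The authors' quantile-normalised values gave 82 higher and 12 lower genes, all among the 108. With the replicate number as a block, 46 genes were higher, 5 lower and 23 had an interaction. Deviations from the group mean were also correlated between arrays of different groups. For same-numbered arrays r was -0.512 to 0.328 (18 pairs, median 0.0185). For differently numbered arrays r was -0.451 to 0.442 (66 pairs, median -0.00372). These ranges overlap and do not show whether same-numbered arrays share more than a number. Over 752 pairs of a named gene and a distinct alternative, 521 passed, 230 kept the direction without passing, and 1 reversed: Gnrhr with all 17 arrays, at -0.12 (adjusted p = 0.965, over its alternatives 0.0136 to 0.965). Normalised with all 17 arrays, Gnrhr was at 9.84 on WT/Lhr-/- replicate 1, against 4.46 to 4.51 on the WT/Lhr-/- arrays of the fit. The 752 pairs include the fit with only 1 WT/Lhr-/- array. Except where stated, the cause was not tested. Signal near background limits the values of genes such as Ackr1, Gnrhr and Erc2.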

Other observations

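Several genes past the threshold outside the naming rule are given here, and were chosen after their values were seen. Greb1, known as an oestrogen-induced gene in human breast cancer cells, had 12.68, 12.68, 13.04 and 12.60 on the Fshr-CAM/WT arrays, against 11.92, 11.91, 12.14 and 11.66 on the WT/WT arrays. It had 12.88, 12.44, 12.40 and 12.56 on the Fshr-CAM/Lhr-/- arrays, against 11.57, 11.36 and 11.66 on the WT/Lhr-/- arrays. The sides did not overlap, and Greb1 rose by 0.93 ± 0.10 (SE) on the log2 scale (adjusted p = 0.000362). Angpt2, a ligand of the endothelial receptor Tie2, rose by 1.08 ± 0.12 (SE) (adjusted p = 0.000432), with 10.82 to 11.76 on the 8 Fshr-CAM arrays and 9.91 to 10.59 on the 7 others. Masp1, a serine protease of the lectin pathway of complement, rose by 1.36 ± 0.16 (SE) (adjusted p = 0.000432), with 10.78 to 11.85 on the Fshr-CAM arrays and 9.75 to 10.32 on the others.

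Of the 30 gene lists, 20 had no called gene, where 0.894% of all genes tested were called. Among those not described above, proliferation genes had a median of -0.202 over 15 tested, heat shock genes 0.256 over 13, stress genes 0.17 over 12, and insulin-like growth factor genes 0.075 over 15. Corpus luteum genes had -0.105 over 11, ovulation genes 0.323 over 9, and theca genes 0.088 over 12. Surface epithelium had -0.154 over 10, lymphocyte genes 0.07 over 4, Sertoli cell genes 0.12 over 9, and respiratory chain genes -0.028 over 17. Each of these pooled medians stands beside 0.013 over all genes tested.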
